A study of Mus musculus with 2 samples.

Results

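The smooth muscle contractile and actomyosin genes are 42 genes chosen by name, out of 20211 gene symbols measured. They encode the actin and myosin filaments, the proteins that regulate and link them, and the kinases, phosphatase subunits and transcription factors that control contraction. All 42 were found, each on its own row. RNA of primary perivascular cells (PCs, labelled PVC) of the mouse aorta, grown in DMEM with fetal bovine serum, was sequenced from 1 WT and 1 Kai1-/- (Kai1 KO) library, both on the C57BL/6 background and with no treatment labelled. Kai1 is another name of the gene Cd82, which encodes a membrane protein of the tetraspanin family, and the question was how its loss changes the transcriptome of PCs. How the Kai1-/- allele was made, the number of mice pooled in each library, their age at harvest and the passage of the cells are not given in the sources used here. The values were deposited as RPKM, reads per kilobase of transcript scaled to the mapped reads of the library, so that levels of different genes can be compared per length.

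With 1 library per genotype there is no replicate error and no test. Every difference below compares these 2 libraries, and genotype cannot be told apart from animal, culture or library preparation. In bulk RNA, fewer cells of a type and less RNA per cell cannot be told apart either. The targeted gene Cd82 had an RPKM of 12.8 in WT and 2.62 in Kai1-/- PCs, so its transcript was lower and still detected. Which part of the gene the allele lacks is not given in the sources used here. Ratios are given as log2 of Kai1-/- over WT with a pseudocount of 0.1 RPKM, so that low genes appear to differ less than they do, and differences past 2-fold were counted. Most low values lay near steps of whole reads, which put the depth at about 29500000 reads in WT and 26600000 in Kai1-/- PCs. Intervals from these estimated reads cover counting error only, and their half-width ran from 0.0109 (Acta2) to 0.535 (Acta1) on the log2 scale among members whose mean RPKM reached 1.

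Of 8 pericyte markers, 3 passed the filter used below, a mean RPKM of 1. Pdgfrb and Cspg4 stood at 44.7 and 15.4 RPKM in WT and 31.6 and 8.27 in Kai1-/- PCs, and Mcam stood at 4.90 and 0.264. The defining pericyte genes Rgs5, Kcnj8 and Abcc9 were below 1 RPKM in either library. The 9 endothelial markers summed to 1.295 RPKM in WT and were all listed at 0 in Kai1-/- PCs. The 7 macrophage markers summed to 13.0 and 3.13 RPKM, of which Csf1r made up 11.7 and 2.66, and Emr1 and Aif1 were listed at 0. Of 6 fibroblast markers, 5 passed the filter on mean RPKM, and 1 of them, Col3a1, was higher in Kai1-/- PCs (67.5 and 101). The most abundant, Col1a1, had 924 RPKM in WT and 534 in Kai1-/- PCs, and Dcn had 10.8 and 8.22. Pdgfra (2.01 and 0.854) and Dpt (3.06 and 0.783) were more than 2-fold lower, against 7.81% of all genes that passed. These 2, like Mcam among the pericyte markers, passed through their level in WT alone. All 6 proliferation genes examined, among them Mki67 and Cdk1, were more than 2-fold higher in Kai1-/- PCs, against 7.98% of all genes that passed. Their median log2 ratio was 1.58. The part of any of these in the differences below was not tested.

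Smooth muscle cells contract when myosin motors pull on actin filaments. The motor is switched on by phosphorylation of its regulatory light chain by myosin light chain kinase and switched off by myosin phosphatase, which the kinases downstream of RhoA inhibit. Most of these proteins exist as a form enriched in smooth muscle and a form that nearly every cell makes. The genes of the smooth muscle forms are known targets of serum response factor (SRF), which binds a DNA element called the CArG box and acts with the cofactor myocardin. In cultured mural cells these genes are known to vary with the state of the cells, and alpha smooth muscle actin is a usual marker of them.

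The members were sorted from general knowledge into 14 smooth muscle, 20 ubiquitous, 6 mixed and 2 striated muscle genes. Mixed genes make both muscle and non-muscle products or are less restricted. As a class, the smooth muscle genes had a lower median ratio in the Kai1-/- library than the ubiquitous ones, led by Ppp1r14a, Myh11, Myl9, Cnn1, Lmod1 and Tagln. Of the 14 smooth muscle genes, 10 reached a mean RPKM of 1. Among these, 6 differed by over 2-fold towards lower values and 0 towards higher, with a median log2 ratio of -1.13. The 0 depends on Csrp2, which was more than 2-fold higher, being counted as mixed. Myh11 reached a mean RPKM of 1 through its level in WT alone, so its low ratio is in part a condition of its being counted. At a mean RPKM of 5, which leaves Myh11 out, 5 of 9 smooth muscle genes were more than 2-fold lower, with a median of -1.04. Among these, Ppp1r14a (39.8 in WT and 4.22 in Kai1-/- PCs) reached a mean RPKM of 5 through its level in WT alone. All 20 ubiquitous genes reached a mean RPKM of 1, and 0 of them lay past 2-fold in either direction with the values as deposited. Their median was -0.36, and Pdlim5 (1.98-fold lower) and Actb (1.92-fold lower) lay just short of 2-fold. Over all 10068 genes that passed, 7.81% lay past 2-fold on the lower side and 7.98% on the higher side, and the median was 0.08. The difference of the 2 class medians was -0.77, a value that does not depend on how the libraries are scaled, apart from the pseudocount and the filter. It was -0.46 without Myl9 and Ppp1r14a, a pair left out after their values were seen. Over all 36 members that passed, 8 (22.2%) were more than 2-fold lower and 1 was higher. Of the 8, Acta1 and Myh11 passed through their level in WT alone. At a mean RPKM of 5, 7 of 34 members were lower, against 5.37% of all genes. Acta1 and Ppp1r14a were among them through their level in WT alone. With the median of all genes set to 0, 10 members were lower, 2 of them ubiquitous, against 9.02% of all genes. With upper quartiles made equal, 12 were lower, 3 of them ubiquitous, against 9.7%. Gapdh itself had a log2 ratio of 0.50. After scaling to Gapdh the median of all genes was -0.41, and 18 members were more than 2-fold lower, 7 of them ubiquitous, with 0 higher, against 18.4% of all genes lower and 2.76% higher at that scaling.

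**Figure D1:**
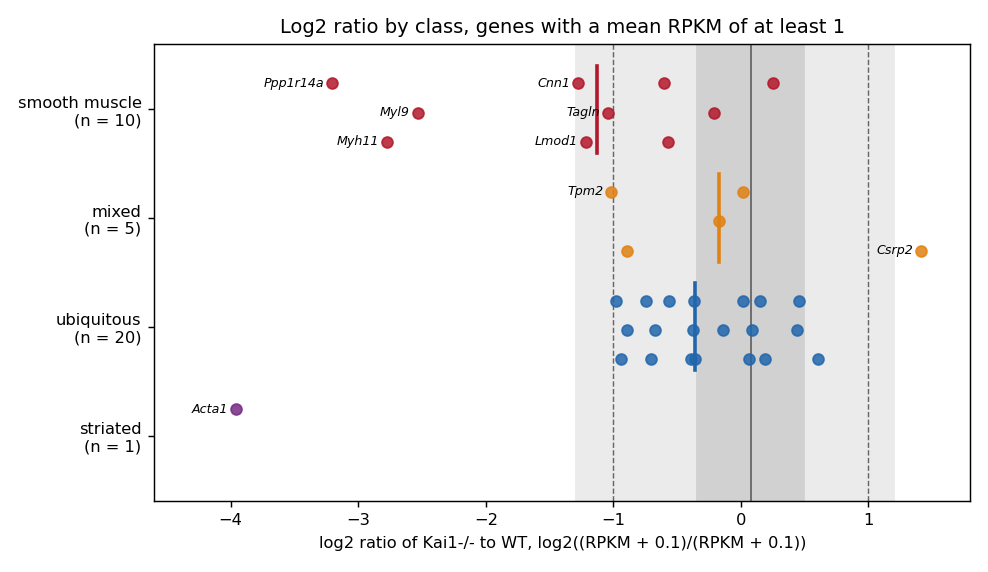
Log2 ratio of Kai1-/- to WT (x axis) for the 36 members that reached a mean RPKM of 1, by class (y axis). Points are genes, coloured bars are class medians for classes of more than 1 gene, the grey line is the median of all 10068 genes, the dark and light bands hold their central 50% and 90%, and dashed lines mark 2-fold. The smooth muscle median lies at -1.13 and the ubiquitous median at -0.36, and all 20 ubiquitous genes lie between the dashed lines with the values as deposited.

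Members were also set beside genes of like abundance. In the band from a mean RPKM of 100 upwards, chosen after the data were seen, 922 genes had a median log2 ratio of 0.33, with 4.99% of them past 2-fold on the lower side and 9.54% on the higher side. The 23 members in this band had a median of -0.36, with 3 past 2-fold on the lower side and 1 on the higher side. The 1, Csrp2 (57.8 in WT and 154 in Kai1-/- PCs), reached the band through its level in Kai1-/- PCs alone. In all, the 42 members made up 2.85% of the summed RPKM in WT and 1.92% in Kai1-/- PCs. The smooth muscle class took 0.703% and 0.278%, and the ubiquitous class 1.92% and 1.53%. These shares have different totals, since the RPKM of all rows summed to 885190 in WT and 1238893 in Kai1-/- PCs. As sums of RPKM, the smooth muscle class had 6226 and 3438, whereas the ubiquitous class had 17015 and 18934, so its sum was higher where its share was lower. The higher ubiquitous sum rests on 1 gene, Myl6, with 8391 and 12735. Of the 20 ubiquitous genes, 12 were lower in Kai1-/- PCs. All 42 members summed to 25184 and 23827.

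**Figure D2:**
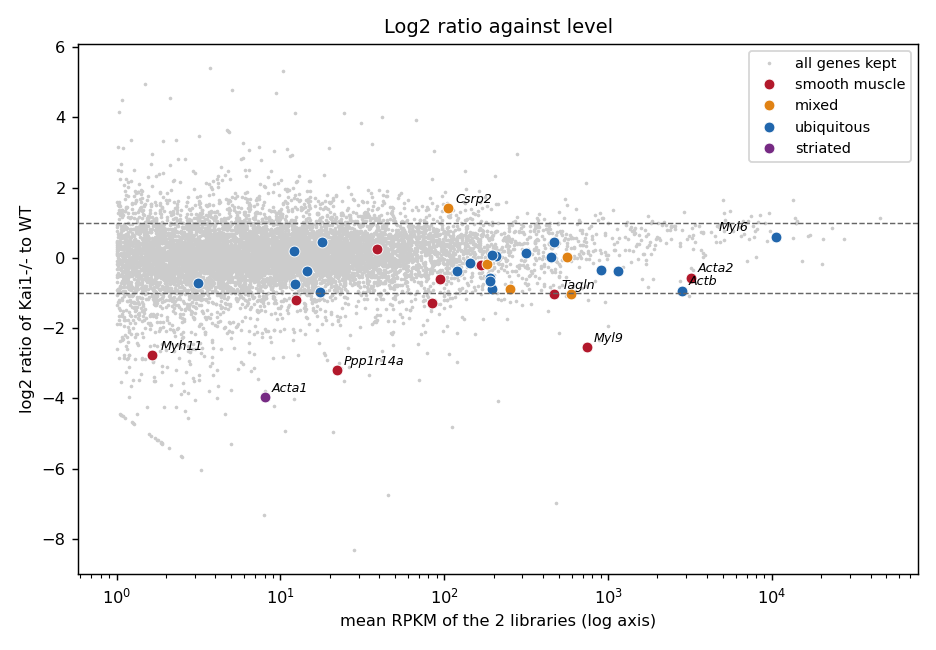
Log2 ratio of Kai1-/- to WT (y axis) against the mean RPKM of the 2 libraries (x axis, log scale). Grey points are all 10068 genes, coloured points the 36 members by class, and dashed lines mark 2-fold. Above a mean RPKM of 100 the median of all genes is 0.33 and that of the members -0.36.

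Acta2 and Actb had the highest RPKM of all members after the light chain Myl6. Acta2, the alpha smooth muscle actin (chromosome 19, 34315580 to 34329826, NCBI37), had an RPKM of 3823 in WT and 2580 in Kai1-/- PCs. It ranked 40 and 84 among all symbols, so it stayed among the most abundant transcripts in either library. Actb, the beta-actin of nearly every cell (chromosome 5, 143664794 to 143668433), had 3691 and 1926, a log2 ratio of -0.94 against -0.57 for Acta2. Gamma-actin, Actg1, had 1303 and 996. The enteric smooth muscle actin Actg2 had 180 and 155. The log2 ratio of the actin that marks smooth muscle was thus nearer 0 than that of the ubiquitous beta-actin. Acta2 took 42.4% of the summed actin RPKM in WT and 45.6% in Kai1-/- PCs, whereas Actb took 41.0% and 34.0%.

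Acta1, the skeletal muscle alpha-actin (chromosome 8, 126415669 to 126418651), had the lowest log2 ratio of all members. Its RPKM was 15.3 in WT and 0.888 in Kai1-/- PCs, 17.2-fold lower, a log2 ratio of -3.96 ± 0.535 (95% counting interval from about 562 and 29 reads), or -3.11 with a pseudocount of 1 RPKM. Only 0.407% of all genes that passed the filter had a lower ratio. Acta1 stood at 0.40% of the level of Acta2 in WT and 0.0344% in Kai1-/- PCs. Of the 50-base words of its transcript, 2.0% also occur in that of Actb. The other striated muscle actin, Actc1 of the heart, was listed at 0 in WT and had 0.0315 in Kai1-/- PCs. Among skeletal and cardiac muscle markers, Myod1, Myh4 and Myh6 were listed at 0 in either library, while the troponin gene Tnnt2 had 62.6 and 132 RPKM. Of the 6 cardiac markers, 4 passed the filter. Of these, 2 (Tnnt2 and Nppa) were more than 2-fold higher and 1 (Myl7, 6.28 and 2.80) more than 2-fold lower. Over all genes that passed, 7.98% were more than 2-fold higher and 7.81% lower. Nppa (0.593 and 2.03) passed through its level in Kai1-/- PCs alone. Acta1 passed the filter through its level in WT alone.

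**Figure D3:**
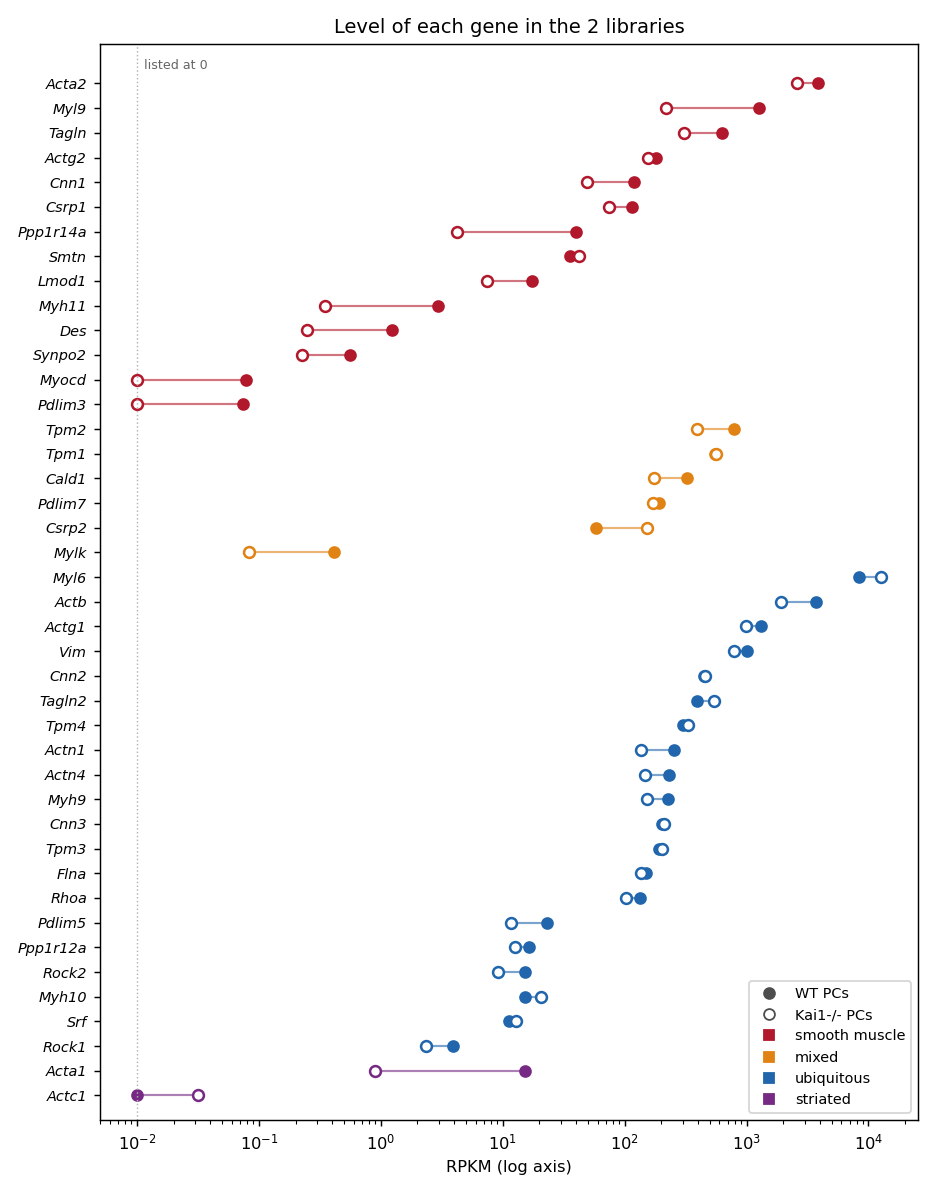
RPKM (x axis, log scale) of each of the 42 members (y axis) in WT (filled) and Kai1-/- PCs (open), by class and by level in WT. Values listed at 0 are drawn at the dotted line. In the smooth muscle class 13 of 14 open points lie left of the filled ones, with Smtn as the exception, and in the ubiquitous class 12 of 20 do. Of all 20211 genes, 7643 are lower in Kai1-/- PCs, but this total includes genes listed at 0 in WT, which cannot be lower. Of the 10068 genes that reached a mean RPKM of 1, 4522 have a log2 ratio below 0. Among members that reached it, 9 of 10 smooth muscle and 12 of 20 ubiquitous genes do. The 13 include Myocd, Pdlim3, Des and Synpo2, which did not reach a mean RPKM of 1. Scaled to Gapdh, Smtn and 7 of the other 8 ubiquitous genes, all but Myl6, also have a log2 ratio below 0.

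The myosin heavy chains differed by form. Myh11, the heavy chain of differentiated smooth muscle (chromosome 16, 14194620 to 14291501), had an RPKM of 2.96 in WT and 0.346 in Kai1-/- PCs, 8.55-fold lower, a log2 ratio of -2.78 ± 0.386. The interval does not cover the choice of pseudocount, and with 1 RPKM in place of 0.1 the log2 ratio was -1.56. Its level was low even in WT, at 1.30% of that of Myh9, a non-muscle heavy chain, and at 0.225% in Kai1-/- PCs. Myh9 itself had 227 and 154, and the other non-muscle heavy chain, Myh10, had 15.2 and 20.6. Nearly all heavy chain RPKM was of the non-muscle kind in either library, and Myh10 took 6.18% of it in WT and 11.8% in Kai1-/- PCs.

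Myl9, a regulatory light chain typical of smooth muscle (chromosome 2, 156601156 to 156607394), had an RPKM of 1259 in WT and 217 in Kai1-/- PCs, 5.80-fold lower, a log2 ratio of -2.53. Of the 23 members with a mean RPKM from 100 upwards it had the lowest log2 ratio, and 1.38% of all genes had a lower ratio. The non-muscle regulatory light chains Myl12a and Myl12b, which are not members but belong to the wider pathway, had 541 and 90.6 in WT and 410 and 53.5 in Kai1-/- PCs. Myl9 took 66.6% of the regulatory light chain RPKM in WT and 31.9% in Kai1-/- PCs, where Myl12a was the leading form with 60.2%. This family was added after the values were seen. Myl6, the essential light chain that smooth and non-muscle myosin share, was the highest of all members and had 8391 and 12735.

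Transgelin and calponin bind actin filaments and each have a smooth muscle and a ubiquitous form. Tagln (chromosome 9, 45737711 to 45744141) had an RPKM of 633 in WT and 307 in Kai1-/- PCs, giving a log2 ratio of -1.04, and Tagln2 had 396 and 544, a log2 ratio of 0.46 that lay below 0 after scaling to Gapdh. The order of the pair was thus exchanged, and the share of Tagln went from 61.5% to 36.1%. Cnn1 (chromosome 9, 21903725 to 21914074) had 120 and 49.2, a log2 ratio of -1.28. Its relatives Cnn2 and Cnn3 had 448 and 202 in WT and 454 and 211 in Kai1-/- PCs, with log2 ratios of 0.02 and 0.06. Cnn1 took 15.5% of calponin RPKM in WT and 6.89% in Kai1-/- PCs. The lower level of Tagln and Cnn1 was also seen as a lower share, which no scaling of a library moves.

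Tropomyosins lie along the actin filament and set which proteins bind it. Tpm2 (chromosome 4, 43527583 to 43536637) had an RPKM of 793 in WT and 392 in Kai1-/- PCs, giving a log2 ratio of -1.02, just past 2-fold. Tpm1 had 556 and 561. Tpm4 had 300.0 and 333, and Tpm3 had 190 and 201. Tpm2 led the tropomyosins in WT with a share of 43.1% and came after Tpm1 in Kai1-/- PCs with 26.4%. The muscle and non-muscle splice products of Tpm1 and Tpm2 are summed in these values and cannot be told apart.

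**Figure D4:**
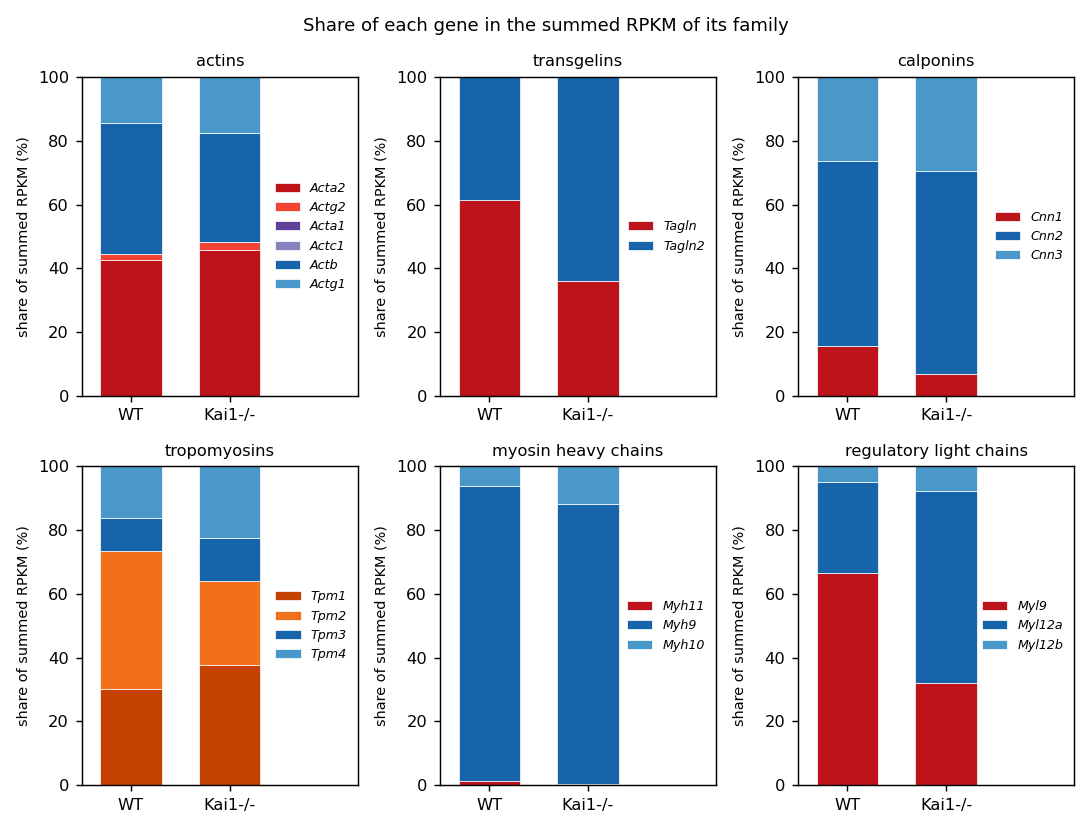
Share of each gene (coloured segments) in the summed RPKM of its family (y axis, percent) in the WT and Kai1-/- libraries, with smooth muscle genes in red, mixed in orange, ubiquitous in blue and striated muscle genes in purple. The red segment is smaller in Kai1-/- PCs for Tagln (61.5% to 36.1%), Cnn1 (15.5% to 6.89%), Myh11 (1.21% to 0.198%) and Myl9 (66.6% to 31.9%), and larger for Acta2 (42.4% to 45.6%).

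Among other regulators of the thin filament, Lmod1, which nucleates actin filaments in smooth muscle, had an RPKM of 17.3 in WT and 7.41 in Kai1-/- PCs, giving a log2 ratio of -1.22. Cald1, or caldesmon, which blocks myosin from actin, had 326 and 176, a log2 ratio of -0.89. Smoothelin, Smtn, had 35.6 and 42.5 and was the only gene of the smooth muscle class that was higher in Kai1-/- PCs. It was higher by 1.19-fold, a direction that turned when the libraries were scaled to Gapdh. The class thus held 1 gene above 0 among the 10 that passed the filter.

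Ppp1r14a, which inhibits myosin phosphatase (chromosome 7, 30074339 to 30078409), had an RPKM of 39.8 in WT and 4.22 in Kai1-/- PCs, 9.44-fold lower, a log2 ratio of -3.21 ± 0.486. The targeting subunit of that phosphatase, Ppp1r12a, had 16.4 and 12.7. The level of the inhibitor was thus above that of the subunit in WT (2.42 to 1) and below it in Kai1-/- PCs (0.332 to 1). Mylk, the gene of myosin light chain kinase, had only 0.417 and 0.0835, so it stayed under the filter on mean RPKM, with about 94 and 17 reads. Rhoa, the upstream GTPase, had 134 and 104. The kinases Rock1 and Rock2 had 3.92 and 15.3 in WT and 2.36 and 9.10 in Kai1-/- PCs, log2 ratios of -0.71 and -0.75 that passed 2-fold when scaled to Gapdh.

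The intermediate filament of muscle, desmin (Des), was near the floor with an RPKM of 1.23 in WT and 0.25 in Kai1-/- PCs, from about 103 and 19 reads. Vimentin, Vim, the intermediate filament of mesenchymal cells, had 1013 and 789 and made up at least 99.88% of the pair in either library. The alpha-actinins, which crosslink actin, were close to each other, with 252 and 136 for Actn1 and 233 and 146 for Actn4. Flna, or filamin A, which links actin to the membrane, had 151 and 137. Of the adaptors with LIM or PDZ domains, Csrp1 had 114 and 75.1, Pdlim5 had 23.1 and 11.6 and Pdlim7 had 193 and 171. Synpo2 had 0.556 and 0.227, and Pdlim3 had 0.0736 in WT and was listed at 0 in Kai1-/- PCs.

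Csrp2 (chromosome 10, 110357232 to 110376678), a LIM domain protein of arterial smooth muscle counted here as mixed, was the only member more than 2-fold higher. Its RPKM was 57.8 in WT and 154 in Kai1-/- PCs, 2.66-fold higher, a log2 ratio of 1.41, and 3.23% of all genes had a higher ratio. Its relative Csrp1 was lower, so that Csrp2 stood at 50.5% of Csrp1 in WT and at 205% in Kai1-/- PCs. Scaled to Gapdh, the ratio of Csrp2 was less than 2-fold.

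Among the transcription factors, Srf had an RPKM of 11.3 in WT and 12.9 in Kai1-/- PCs. Myocd, the gene of myocardin, had 0.0783 in WT, about 11 reads, and was listed at 0 in Kai1-/- PCs, so it was at the limit of detection in WT too. The related cofactor genes Mkl1 and Mkl2 had 44.1 and 3.28 in WT and 43.4 and 2.40 in Kai1-/- PCs. The log2 ratios of Srf, Mkl1 and Mkl2 were 0.19, -0.02 and -0.43, while Myocd was too low for a ratio.

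Because the smooth muscle genes are known SRF targets, RefSeq promoters (GRCm38.p6), from 250 bases before to 50 after the start of each gene, were searched for the CArG box. The element reads the same way on either strand, so 1 scan covers both. A promoter was given for 35 members, and 7 of these (20.0%) held a box, against 488 of 27025 genes (1.81%). No entry was given for Actb, Actg2, Tagln, Myh11, Csrp2, Myocd and Rock1. The stretches around the boxes are shown because their genes include both the lowest log2 ratio of all members and ratios above 0, with the box in capitals, 5′ to 3′ on the strand of the gene and in the order of the log2 ratio, with Actc1, which is near 0 in either library, last.
Acta1, chr8:123894804-123894883, minus strand: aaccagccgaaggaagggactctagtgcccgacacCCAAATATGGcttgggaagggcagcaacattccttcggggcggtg
Myl9, chr2:156775268-156775347, plus strand: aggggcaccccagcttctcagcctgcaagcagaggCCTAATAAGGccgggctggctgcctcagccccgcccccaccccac
Actg1, chr11:120348541-120348620, minus strand: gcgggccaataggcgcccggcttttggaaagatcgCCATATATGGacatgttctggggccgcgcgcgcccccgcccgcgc
Cnn2, chr10:79988509-79988588, plus strand: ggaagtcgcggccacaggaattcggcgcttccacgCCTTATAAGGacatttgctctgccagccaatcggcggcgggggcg
Srf, chr17:46556180-46556279, minus strand: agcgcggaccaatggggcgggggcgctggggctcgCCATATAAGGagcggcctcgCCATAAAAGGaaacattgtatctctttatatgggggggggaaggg
Myl6, chr10:128493015-128493094, minus strand: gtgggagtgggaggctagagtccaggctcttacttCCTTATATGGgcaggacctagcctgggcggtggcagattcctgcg
Actc1, chr2:114052878-114052957, minus strand: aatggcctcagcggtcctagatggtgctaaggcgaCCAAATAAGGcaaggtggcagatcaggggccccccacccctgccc

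The boxes began 73 bases before the start in Acta1, 161 in Myl9, 90 in Actg1, 56 in Cnn2, 50 in Myl6 (from 1 of its 2 starts), 47 in Actc1 and 82 and 62 in Srf. The log2 ratios of these genes ran from -3.96 (Acta1) and -2.53 (Myl9) over -0.39 (Actg1), 0.02 (Cnn2) and 0.19 (Srf) to 0.60 (Myl6). Of the 6 that passed the filter on mean RPKM, 3 lay below 0 and 2 were more than 2-fold lower, with a median of -0.18. Of the 24 members with a promoter but no box that passed, 17 lay below 0 and 4 were more than 2-fold lower, with a median of -0.47. Among classes, 1 of 10 smooth muscle genes and 4 of 18 ubiquitous genes held a box. With 1 mismatch allowed these were 4 of 10 (40.0%) and 6 of 18 (33.3%), so the order of the classes depended on the match required. The smooth muscle genes Actg2, Tagln, Myh11 and Myocd had no promoter entry and are not in these counts. Acta2 had no exact box, and a match with 1 mismatch, a kind that 23.8% of all genes hold, began 84 bases before the start. It is shown because Acta2 is the leading smooth muscle gene.
Acta2, chr19:34255413-34255492, minus strand: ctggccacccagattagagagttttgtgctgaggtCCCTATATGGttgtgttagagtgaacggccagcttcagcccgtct

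A list of 40 further genes of the actomyosin pathway, none of them members, was looked up, and 38 passed the filter on mean RPKM. Of these, 6 were more than 2-fold lower and 0 higher, against 7.81% and 7.98% of all genes. A log2 ratio below 0 was found for 29, against 4522 of all 10068 genes, and the median was -0.42. Fhl2, a LIM domain cofactor known to act with SRF, had an RPKM of 58.4 in WT and 18.9 in Kai1-/- PCs. Limk1, which phosphorylates cofilin, had 14.2 and 5.16. Palld, which bundles actin, had 10.8 and 4.69. Ldb3, a protein of muscle Z-lines, had 3.26 and 1.39, and the small heat shock protein Hspb6 had 69.3 and 33.7. The abundant filament turnover genes Cfl1 and Pfn1 were within 2-fold, with 1303 and 722 in WT and 1640 and 600.3 in Kai1-/- PCs.

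Some members share sequence with other genes, which makes their level uncertain. Of the 42 members, 29 shared no 50-base word of their longest coding transcript with another gene, and 6 shared over 1% of them, namely Tpm3, Myl6, Actb, Actg1, Acta1 and Myh9. For Tpm3 this was 62.4% and for Myl6 27.8%. The length of the reads is not given in the sources used here, and words with mismatches were not counted. The smooth muscle genes Tagln, Myl9, Cnn1, Lmod1 and Ppp1r14a shared none, Acta2 0.404% and Myh11 0.395%.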

How the data were processed

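RNA of 1 WT and 1 Kai1-/- culture of mouse aortic PCs was sequenced. The authors aligned the reads to mm9 (NCBI37) with TopHat 2.0.9 and Bowtie, allowing 2 mismatches and using 21-base segments, and deposited 1 RPKM value per RefSeq gene and library. Cufflinks is named among their tools. Strandedness is not given in the sources used here. From the deposited RPKM values, 38 of 20462 rows that named no gene were dropped and the 153 symbols on more than 1 row were averaged. Ratios used a pseudocount of 0.1 RPKM, and the filter kept genes whose mean RPKM reached 1. No test was run, since each genotype has 1 library. The members and lists were chosen with earlier results of these data known, and all 42 members are reported. Detail was given to families with restricted and ubiquitous isoforms, Myocd, Srf and members past 2-fold that passed the filter, and of the 40 further pathway genes those past 2-fold are named, except 1 that is not reported here. Cfl1, Pfn1, Mkl1 and Mkl2 were chosen after their values were seen. Depth was estimated from whole-read steps of low values in genes with 1 annotated transcript (GENCODE M1), less a fragment of 200 bases. This fit was checked on simulated data, and 81.3% of low values in WT and 80.6% in Kai1-/- PCs lay within 0.15 of a whole read. Alternatives were other pseudocounts, filters, scalings and classes. Python 3.11.15, numpy 2.4.6, pandas 2.3.3 and matplotlib 3.10.9 were used.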

Additional observations from a re-analysis of the deposited data

How the results depend on the processing

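No paired analysis was possible because there is only 1 WT and 1 Kai1-/- library. The difference of the class medians (-0.77) was -0.66 with no filter on mean RPKM, -0.53 with the mixed genes counted as smooth muscle, -0.68 over the core smooth muscle genes and -0.46 without Myl9 and Ppp1r14a, the last chosen after seeing the data. Other pseudocounts, a mean RPKM of at least 5, summed rows and the mixed genes counted as ubiquitous moved it by less than its counting interval. The count of members more than 2-fold lower (8) was 18 with scaling to Gapdh, which left 0 higher, where 18.4% of all genes were lower and 2.76% higher, and 3 among members with a mean RPKM of at least 100. It stayed within 1.5 times under the other alternatives, at 7 to 12. The count then held 2 ubiquitous genes with the median of all genes set to 0, and 3 with upper quartiles made equal. Against its nearest ubiquitous relative alone, the share of Acta2 was 6.38 percentage points higher in Kai1-/- PCs (3.18 within all actins), and the differences were -11.3 points for Cnn1 and -18.5 for Tpm2 (-8.65 and -16.8 within their families). With 1 mismatch allowed, 14 members held a CArG box, or 40.0% against 23.8% of all genes. Of 180 recomputed log2 ratios of single members, 85 moved by less than their counting interval and 95 further. A pseudocount of 1 RPKM gave -1.56 for Myh11. Scaling to Gapdh took 11 members across 2-fold and changed the sign of 9. Depth limits Myocd, Pdlim3 and Actc1, with about 11 reads at most in either library. Mylk, Synpo2 and Des had more reads and were left out by the filter on mean RPKM. No ratio was called for any of them.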
